A study of Homo sapiens with 20 samples.

Results

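The RNA of 10 cathepsin genes was followed in 4 cell lines and in derivatives of them that grow in proteasome inhibitors. The genes are CTSA, CTSB, CTSC, CTSD, CTSH, CTSK, CTSL, CTSS, CTSW and CTSZ, 10 of the 18305 genes listed. They were selected by symbol, and the family was selected because CTSS was lower in every resistant myeloma group than in the wild-type (WT) cells of its line. The CTSS values of the resistant and WT myeloma groups are therefore given as a description without a test. RNA was sequenced from 3 lines of multiple myeloma, a cancer of plasma cells (AMO1, L363, RPMI-8226), and from the B-lymphoblastoid line ARH-77. Each line was measured as WT cells without drug and as bortezomib-resistant (BtzR) cells grown in 90 nM bortezomib, and AMO1 and L363 also as carfilzomib-resistant (CfzR) cells grown in 90 nM carfilzomib. Resistance was evolved in culture and each resistant group is 1 derived population, so the 2 biological replicates of a group do not sample independent resistant populations. Values are FPKM, the fragments assigned to a gene scaled to transcript length and to the mapped fragments of the library, in 20 libraries from 10 groups of 2.

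Cathepsins are proteases of the endosome and lysosome. They are made as inactive precursors, sorted to the acidic compartment largely by the mannose 6-phosphate tag, and matured there by cleavage. Most are cysteine proteases of the papain family, restrained by the cystatins, while CTSD is an aspartic protease and CTSA a serine carboxypeptidase. CTSS is found mainly in antigen-presenting cells, where it trims the invariant chain CD74 so that HLA class II molecules can be loaded with peptide, and it keeps its activity at neutral pH. Bortezomib and carfilzomib block the proteasome, the other main route of protein breakdown in a cell.

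Differences are given on the log2(FPKM + 1) scale, which understates changes at low FPKM. A gene was called changed at a Benjamini-Hochberg adjusted p under 0.05 in limma over all 13089 genes tested if its log2-fold change was also 1 or more in size. Of the 10 cathepsins, 9 passed the filter of a group mean of 1 FPKM in at least 1 group. CTSW did not. CTSS passed in 6 groups, CTSH in 5 and CTSL only through the 3 L363 groups. The FPKM of all genes summed to between 457317 and 494850 per library, and sequencing depth is unknown because the values carry no read counts. Replicates of a group correlated with r of 0.986 to 0.998 across genes. The 2 libraries labelled AMO1 CfzR stood apart from their label. Across genes their r was 0.986 to 0.992 against L363 libraries but 0.878 to 0.883 against AMO1 WT and BtzR. They are called the libraries labelled AMO1 CfzR below and are compared both with AMO1 WT and with L363 WT. The 7 plasma cell markers summed to 849 to 4163 FPKM in the myeloma libraries and to 294 to 336 in ARH-77, whereas the 6 B cell markers summed to 538 to 764 in ARH-77. In the myeloma groups the B cell markers summed to at most 10.9 FPKM except in AMO1 BtzR, where they reached 98 to 100, most of it CIITA. In bulk RNA, fewer cells with a transcript and less of the transcript per cell cannot be told apart.

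CTSC, an exopeptidase that activates granule proteases, and CTSD, the main aspartic protease of the lysosome, together made up 43.6% to 80.2% of the summed FPKM of the 10 genes in each myeloma library. Their share was under 50% only in RPMI-8226 BtzR, at 46.8% and 43.6%, where CTSB was the most abundant at 34.7% and 39.4%. The sum ranged from 264 to 374 FPKM in the myeloma libraries and from 584 to 714 in ARH-77, so the 2 ranges did not overlap. The share of CTSS in the sum was 9.60% and 11.7% in the AMO1 WT libraries and 6.06% and 6.31% in RPMI-8226 WT. It was lowest in the libraries labelled AMO1 CfzR, at 0.204% and 0.142%. In ARH-77 CTSZ, a carboxypeptidase, CTSC and CTSH, an aminopeptidase, were the 3 most abundant, with CTSZ first in 3 libraries and CTSC first in ARH-77 WT replicate 2.

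**Figure D1:**
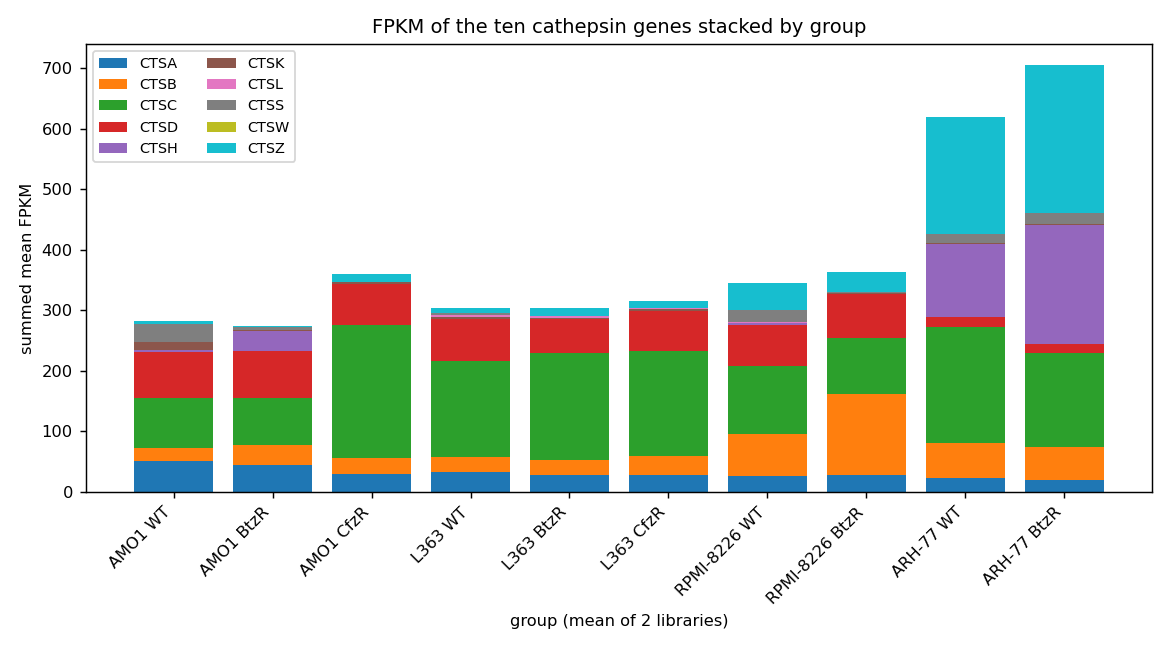
Mean FPKM of the 10 cathepsin genes, stacked for each of the 10 groups, with 1 colour per gene. CTSC and CTSD fill most of the myeloma bars apart from the large CTSB block of RPMI-8226 BtzR, and the ARH-77 bars are taller because of CTSZ and CTSH.

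The genes differed in how far they moved over the groups. CTSH had the widest range of group means, from 0.04 FPKM in L363 BtzR to 196 in ARH-77 BtzR. CTSZ ranged from 0.715 FPKM in AMO1 BtzR to 244 in ARH-77 BtzR, and CTSS from 0.625 in the libraries labelled AMO1 CfzR to 29.9 in AMO1 WT. The narrowest spans belonged to CTSA, with a highest group mean of 50.9 FPKM, 2.54 times its lowest, and CTSC, with a highest of 219, 2.78 times its lowest. CTSW, a cathepsin of cytotoxic lymphocytes, reached at most 0.20 FPKM and was listed at 0 in 5 libraries. It is not described further.

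**Figure D2:**
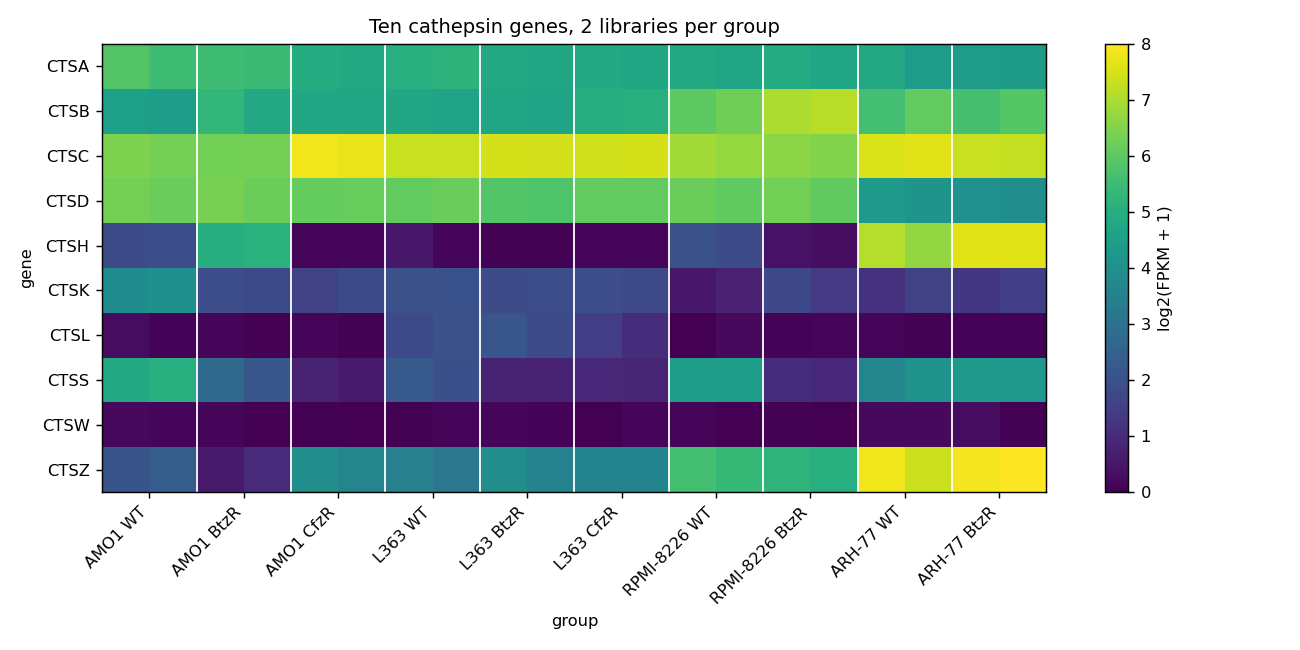
Heat map of log2(FPKM + 1) for the 10 cathepsin genes (vertical axis) in the 20 libraries, arranged in pairs by group (horizontal axis). CTSC and CTSD are bright throughout the myeloma lines, CTSH is bright in ARH-77 and AMO1 BtzR, and CTSW is dark throughout.

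Upstream sequence was at hand for 6 of the 10 genes, CTSA, CTSC, CTSD, CTSH, CTSL and CTSZ, from RefSeq on GRCh38.p14. The 250 bases before the transcription start are shown for the 2 genes with the widest range, CTSH and CTSZ. CTSD, which varied less over the myeloma lines, is shown as well, so that more and less variable genes can be read side by side. All 3 lie on the minus strand and are written 5′ to 3′ in the direction of the gene. They are CTSH at chr15:78945047-78945296, CTSZ at chr20:59007255-59007504 and CTSD at chr11:1763928-1764177. Capitals mark CACGTG, the core bound by the TFEB family of lysosomal regulators, and GAGGAA or its complement TTCCTC, the core bound by PU.1, the product of SPI1.
CTSH: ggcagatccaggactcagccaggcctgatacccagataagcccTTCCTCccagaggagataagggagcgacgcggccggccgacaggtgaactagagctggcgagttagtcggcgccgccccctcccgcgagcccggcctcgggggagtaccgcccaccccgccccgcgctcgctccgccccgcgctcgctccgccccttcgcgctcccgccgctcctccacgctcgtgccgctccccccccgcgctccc
CTSZ: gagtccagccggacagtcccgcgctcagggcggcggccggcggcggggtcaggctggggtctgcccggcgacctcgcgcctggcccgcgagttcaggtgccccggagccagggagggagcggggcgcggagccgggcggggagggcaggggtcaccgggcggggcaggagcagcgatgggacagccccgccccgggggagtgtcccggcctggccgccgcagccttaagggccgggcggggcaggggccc
CTSD: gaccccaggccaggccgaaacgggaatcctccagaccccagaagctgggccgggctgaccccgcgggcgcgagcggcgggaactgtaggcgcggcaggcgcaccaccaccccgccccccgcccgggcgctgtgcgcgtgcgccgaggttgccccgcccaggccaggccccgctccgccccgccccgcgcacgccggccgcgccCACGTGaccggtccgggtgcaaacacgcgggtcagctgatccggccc
CTSD held CACGTG 47 to 42 bases before its start, and CTSH held GAGGAA on the minus strand of the gene 207 to 202 bases before its start. CTSZ held neither. The GC content was 74.4% for CTSH, 81.2% for CTSZ and 79.2% for CTSD. Over all 35116 promoter entries and both strands, 6.34% held CACGTG and 23.6% held GAGGAA in the same window. Of the 6 cathepsins, CACGTG was in CTSD and CTSA, and GAGGAA was in CTSL, CTSH and CTSA. The core of the interferon-stimulated response element and TATAAA were in none of the 6, against 3.02% and 10.7% of all entries. The motifs did not overlap in these 6 windows. These are letter matches and were not tested for binding.

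CTSS was lower in all 5 resistant myeloma groups, and the size of the difference varied with the line. In AMO1 the WT libraries held 28.2 and 31.6 FPKM and the BtzR libraries 5.74 and 3.44. Both BtzR values lay far below both WT values, but the BtzR replicates themselves were spread. The log2 difference was -2.49 ± 0.17 (SE), and the WT mean was 6.51 times the BtzR mean. In RPMI-8226 the WT libraries held 21.5 and 21.1 FPKM and the BtzR libraries 1.08 and 0.91. This was the deepest loss within a line whose libraries matched their labels, with a log2 difference of -3.49 ± 0.17 and a WT mean 21.4 times the BtzR mean. L363 began from a lower level. Its WT libraries held 3.67 and 2.87 FPKM, its BtzR libraries 0.70 and 0.71 and its CfzR libraries 0.85 and 0.81. All 4 resistant L363 libraries thus lay below both WT libraries, with log2 differences of -1.32 ± 0.17 for BtzR and -1.22 ± 0.17 for CfzR. The libraries labelled AMO1 CfzR held 0.75 and 0.50 FPKM, below every WT library of either line. Their log2 difference was -4.25 from AMO1 WT and -1.39 from L363 WT. These fitted differences at low FPKM depend on the pseudocount and reached -2.19 for L363 BtzR with a pseudocount of 0.01.

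**Figure D3:**
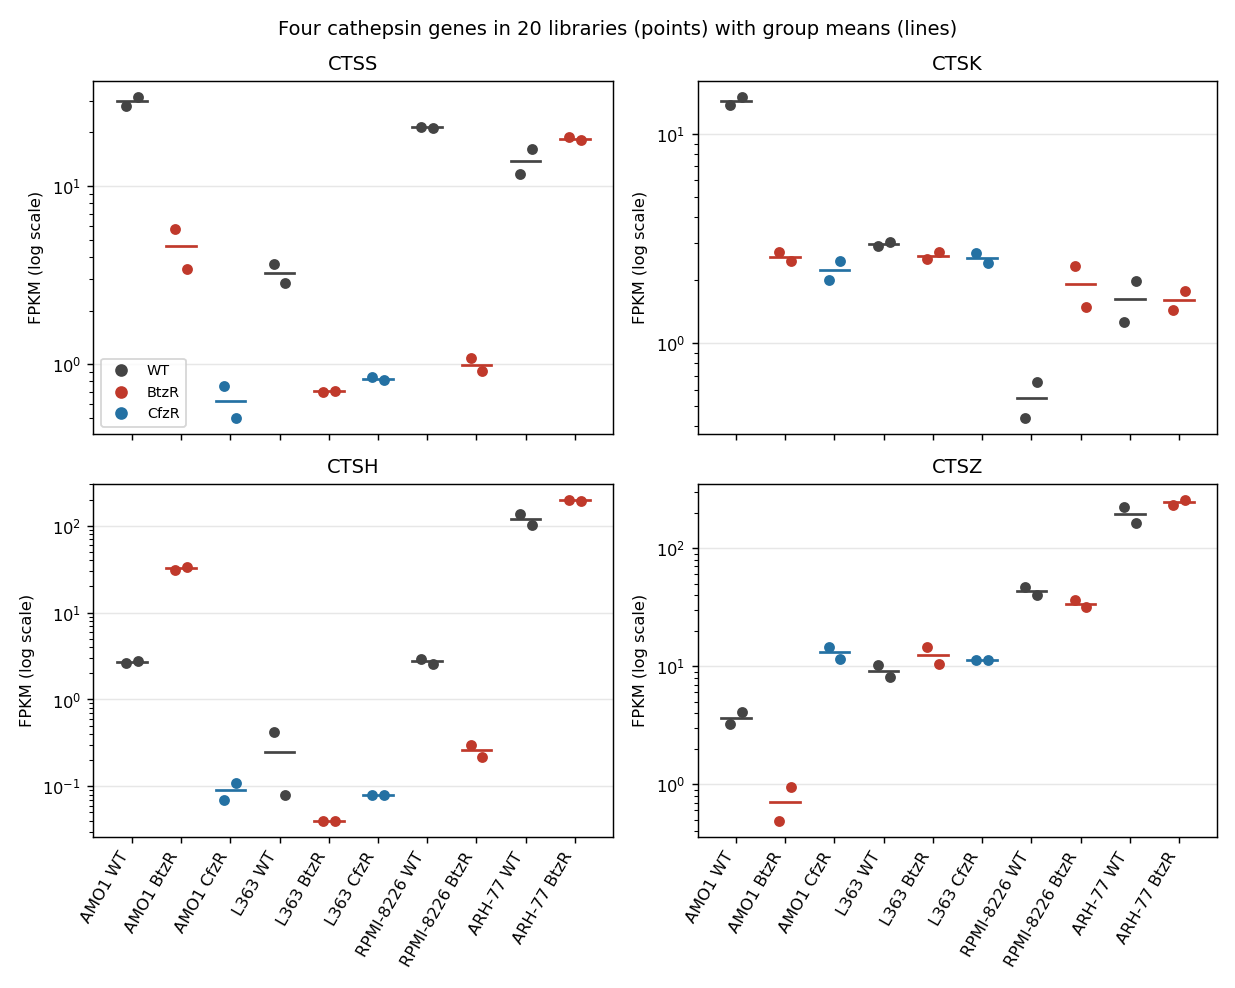
FPKM of CTSS, CTSK, CTSH and CTSZ on logarithmic axes, with a point for each library and a line at each group mean (horizontal axis: the 10 groups; grey WT, red BtzR, blue CfzR). CTSS drops in each resistant myeloma group but not in ARH-77 BtzR, whereas CTSH is higher in AMO1 BtzR and lower in RPMI-8226 BtzR.

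Genes with both resistant libraries below both WT libraries in all 5 resistant myeloma groups made up 1.86% of those tested, 243 in all. Without the libraries labelled AMO1 CfzR the figure was 3.19%, 417 genes over 4 groups. Of these 417, CTSS was 1 of 6 whose log2 difference was -1 or lower in each of the 4 groups. The others were EVI2B, PBDC1, SAMD9L, HLA-DQA2 and OAS2, named after their values were seen. HLA-DQA2 shares sequence with HLA-DQA1, and reads may have been split between them. SAMD9L and OAS2 are interferon-induced genes. Because CTSS was chosen for this pattern, nothing is read from its place in that set.

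Ordered by mean FPKM, CTSS ran from AMO1 WT at 29.9 ± 2.4 (SD, n = 2) through RPMI-8226 WT at 21.3 ± 0.26, ARH-77 BtzR at 18.5 ± 0.48 and ARH-77 WT at 13.9 ± 3.1. AMO1 BtzR followed at 4.59 ± 1.6 and L363 WT at 3.27 ± 0.57. RPMI-8226 BtzR at 0.995, L363 CfzR at 0.830, L363 BtzR at 0.705 and the libraries labelled AMO1 CfzR at 0.625 formed the low end. Among neighbours in this order, the library ranges of AMO1 BtzR and L363 WT overlapped, as did those of L363 BtzR and the libraries labelled AMO1 CfzR. The remaining neighbours had separate ranges, with only 2 libraries in each.

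ARH-77 took no part in the choice of CTSS and could be tested. There the WT libraries held 11.7 and 16.1 FPKM and the BtzR libraries 18.8 and 18.1. Both BtzR libraries were the higher ones, and the WT pair was spread. The change of 0.40 ± 0.17 on the log2 scale was not called (limma adjusted p = 0.149). The remaining differences of CTSS involve groups that entered its choice and carry no test. L363 CfzR and L363 BtzR, resistant to different inhibitors at the same concentration, differed by 0.10 ± 0.17. AMO1 WT exceeded L363 WT by 2.86 ± 0.17, ARH-77 WT by 1.07 ± 0.17 and RPMI-8226 WT by 0.47 ± 0.17. The WT levels of CTSS thus ran from 2.87 FPKM in L363 to 31.6 in AMO1.

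The genes whose group means followed CTSS most closely over the 10 groups were BMF (r = 0.973), ALOX5AP (r = 0.963), ARHGAP15 (r = 0.952), PPFIBP2 (r = 0.950) and PRIM1 (r = 0.945). BMF encodes a pro-apoptotic BH3-only protein and ALOX5AP the activator of leukotriene synthesis. ALOX5AP had group means of 78.1 FPKM in AMO1 WT, 10.9 in AMO1 BtzR, 32.2 in RPMI-8226 WT and 0.095 in RPMI-8226 BtzR. BMF moved less, from 4.97 to 1.41 FPKM in AMO1 and from 3.63 to 0.390 in RPMI-8226. No other cathepsin followed CTSS as closely. CTSH came nearest with r = 0.634, followed by CTSZ with 0.307, and CTSK, CTSB and CTSA had r of 0.150, 0.0997 and 0.0909. For CTSC, CTSD and CTSL r was negative, at -0.359, -0.413 and -0.482. These coefficients describe 10 group means of log2(FPKM + 1) that share libraries, cell lines and scaling.

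In AMO1 BtzR, CTSH rose while CTSK and CTSZ fell, and the other tested cathepsins were not called. CTSH is an aminopeptidase that also matures surfactant proteins in the lung. Its WT libraries held 2.63 and 2.79 FPKM and its BtzR libraries 30.9 and 33.8. The pairs were tight and far apart, a rise of 3.17 ± 0.13 on the log2 scale (limma adjusted p = 1.65e-10) and 11.9-fold in mean FPKM. CTSK, the collagenase of osteoclasts, held 13.7 and 15.0 FPKM in AMO1 WT and 2.72 and 2.47 in BtzR. The pairs did not overlap, and the BtzR level of CTSK lay within that of the resistant L363 groups. CTSK fell by 2.10 ± 0.15 (limma adjusted p = 4.34e-08). CTSZ held 3.24 and 4.09 FPKM in WT and 0.49 and 0.94 in BtzR. It fell by 1.45 ± 0.19 (limma adjusted p = 1.99e-05), with no overlap. CTSB, an abundant endopeptidase and dipeptidase, held 21.8 and 21.6 FPKM in WT and 38.4 and 27.2 in BtzR. Both BtzR libraries were higher but unlike each other, and the change of 0.56 ± 0.15 passed the adjusted p (0.00774, limma) without reaching the fold for a call. In all, 3 of the 8 cathepsins tested besides CTSS were called, where 9.18% of all genes were. The median change of the 8 was -0.087, beside -0.0017 for all genes. Between WT and BtzR the plasma cell markers went from 3834 to 4163 FPKM in sum to 2274 to 2532, and the B cell markers from 8.32 to 10.9 to 98 to 100. Their part in these changes was not tested.

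**Figure D4:**
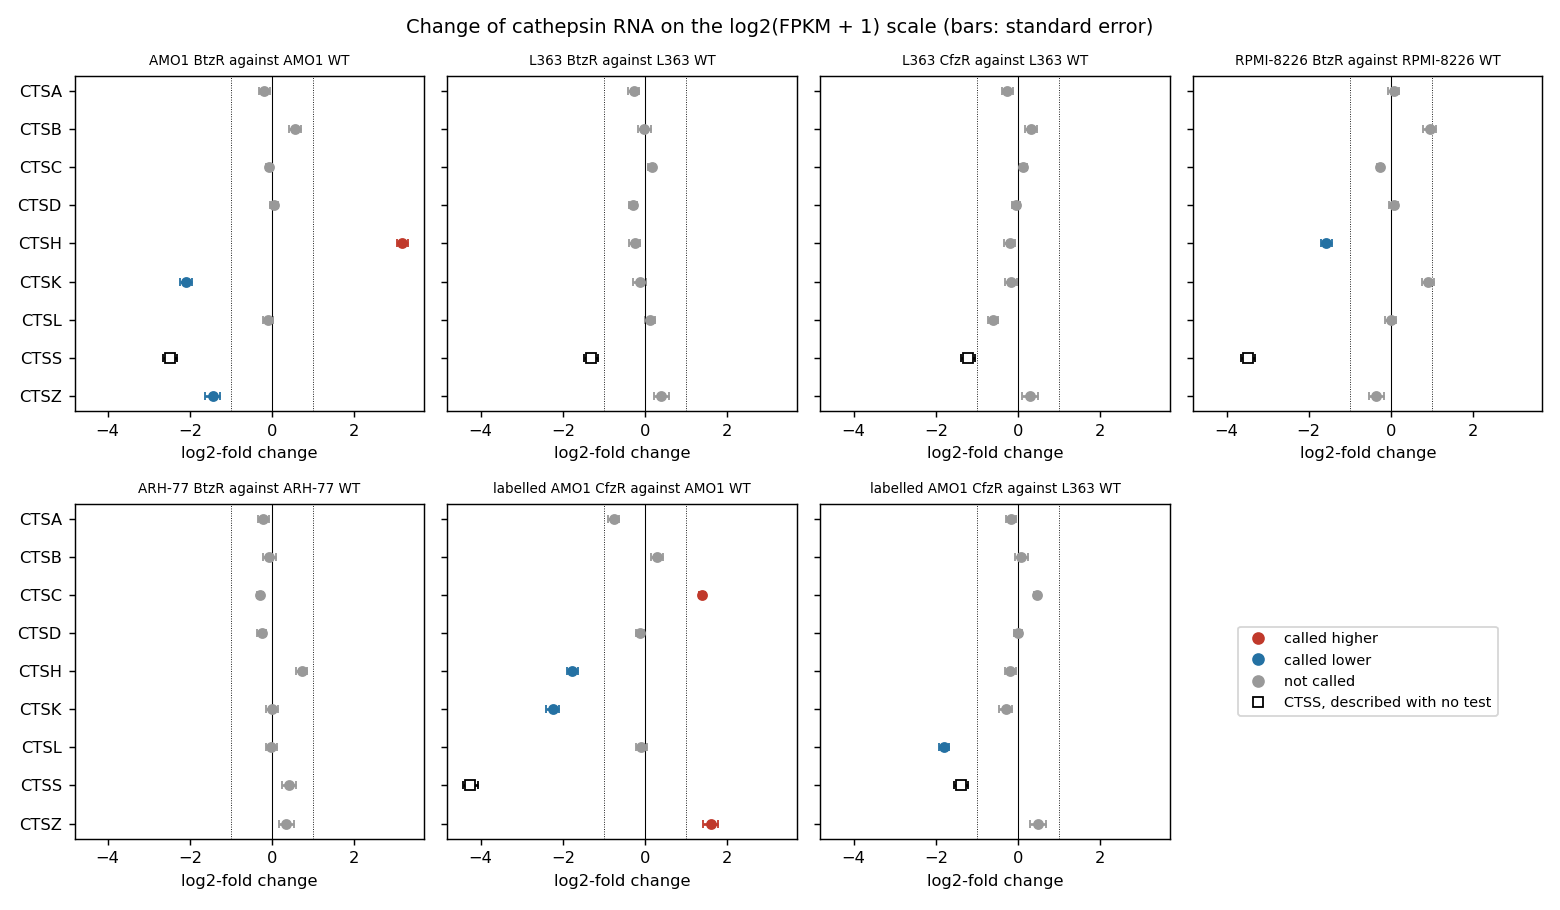
Log2-fold change with its standard error for the 9 cathepsins above the filter (vertical axis) in 7 comparisons. CTSS (open squares, no test) lies left of -1 in each resistant myeloma comparison, whereas CTSH lies at 3.17 in AMO1 BtzR and at -1.57 in RPMI-8226 BtzR.

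In RPMI-8226 BtzR the change in CTSH went the other way. The WT libraries held 2.92 and 2.59 FPKM, about the AMO1 WT level, and the BtzR libraries 0.30 and 0.22. CTSH fell by 1.57 ± 0.13 (limma adjusted p = 1.36e-07) and was the 1 cathepsin of 8 called, where 13.8% of all genes were. For CTSH the WT mean was 10.6 times the BtzR mean. CTSB held 63.7 and 75.6 FPKM in WT and 130 and 139 in BtzR. Both resistant libraries exceeded both WT libraries and every other library of the series, with a mean 1.93 times that of WT. The change of 0.94 ± 0.15 (limma adjusted p = 1.2e-04) was under the fold for a call, and it reached 1.06 when RPMI-8226 WT replicate 2 was left out. CTSK held 0.44 and 0.65 FPKM in WT and 2.35 and 1.49 in BtzR. It was thus higher in the resistant cells, opposite to AMO1, by 0.91 ± 0.15 (limma adjusted p = 1.23e-04). At these low levels the size of the CTSK change moved with the settings, to 1.63 with a pseudocount of 0.1, 1.79 with 0.01 and 1.03 after quantile normalization, all past the fold for a call. It reached 1.12 without RPMI-8226 BtzR replicate 2 and 1.00 without RPMI-8226 WT replicate 2. CTSC held 118 and 105 FPKM in WT and 96.6 and 88.3 in BtzR a change of -0.27 ± 0.08 (limma adjusted p = 0.00839), well under the fold for a call. CTSZ held 47.4 and 39.9 FPKM in WT and 36.1 and 31.7 in BtzR. It was lower in both resistant libraries without passing the adjusted p (0.134, limma). The median change of the 8 was 0.027, beside 0.052 for all genes. The plasma cell markers summed to 1135 to 1186 FPKM in RPMI-8226 WT and to 849 to 912 in BtzR, and the monocyte or macrophage markers to 19.0 to 23.3 in WT and 9.92 to 12.2 in BtzR. Their part was not tested.

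In L363 no other cathepsin was called under either drug, and CTSL was lower in CfzR without reaching the fold. In L363 BtzR 0 of 8 were called by limma, with 1 of 8 at an unadjusted p under 0.05, where 2.06% of all genes were called. In L363 CfzR 0 of 8 were called, with 1 of 8 at an unadjusted p under 0.05, where 1.93% of all genes were called. CTSL, a broad lysosomal endopeptidase, was the member that passed the adjusted p, in CfzR. L363 was the only line with CTSL at or above 1 FPKM. Its WT libraries held 2.40 and 2.92 FPKM, its BtzR libraries 3.41 and 2.56 and its CfzR libraries 1.75 and 1.08. The CfzR pair lay below the others, with a difference of -0.61 ± 0.13 from WT (limma adjusted p = 0.00687) and of -0.73 ± 0.13 from BtzR (limma adjusted p = 0.00229), both under the fold for a call. CTSV is a near relative of CTSL, and reads from the 2 may have been split. Between L363 CfzR and L363 BtzR 0 of 8 cathepsins besides CTSS were called by limma, with 3 of 8 at an unadjusted p under 0.05, where 1.47% of all genes were called. CTSZ held 10.2 and 8.04 FPKM in L363 WT, 14.4 and 10.4 in BtzR and 11.2 and 11.3 in CfzR. CTSK stayed between 2.41 and 3.04 FPKM in all 6 libraries.

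The libraries labelled AMO1 CfzR gave different answers against different WT cells. Against AMO1 WT, 4 of 8 cathepsins were called, where 17.1% of all genes were. CTSC held 225 and 213 FPKM in these libraries against 87.3 and 78.9 in AMO1 WT and rose by 1.39 ± 0.08 (limma adjusted p = 8.87e-10). CTSZ held 14.6 and 11.6 FPKM and rose by 1.59 ± 0.19 (limma adjusted p = 4.43e-06). CTSH at 0.07 and 0.11 FPKM fell by 1.77 ± 0.13 (limma adjusted p = 2.97e-08), and CTSK at 2.01 and 2.46 FPKM fell by 2.25 ± 0.15 (limma adjusted p = 6.2e-09). All 4 of these levels lay nearer to the L363 groups than to AMO1 WT. CTSA, which protects beta-galactosidase and neuraminidase, differed from AMO1 WT by -0.76 ± 0.13 (limma adjusted p = 1.53e-04). Against L363 WT, 1 of 8 was called, where 1.66% of all genes were, and none of those 4 was. The called gene was CTSL, which passed the filter only through the L363 groups and so had to be higher there, and nothing is read from its call. In the libraries labelled AMO1 CfzR it stood at 0.07 and 0.03, within the 0 to 0.19 FPKM of the other AMO1 libraries. CTSC exceeded L363 WT by 0.46 ± 0.08 (limma adjusted p = 0.00121). CTSF, a cathepsin outside the chosen 10, held 5.32 and 5.30 FPKM there, 3.68 to 4.77 across the 6 L363 libraries and at most 0.03 in AMO1 WT and BtzR. Line identity and drug resistance cannot be told apart in these libraries.

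ARH-77 carried the most CTSH and CTSZ, and in its BtzR cells CTSH was higher and CTSC lower without reaching the fold for a call. By limma 0 of 9 cathepsins were called, with 4 of 9 at an unadjusted p under 0.05, where 1.6% of all genes were called. CTSH held 137 and 103 FPKM in WT and 197 and 195 in BtzR, both BtzR libraries being higher. The change of 0.72 ± 0.13 passed the adjusted p (0.00194, limma) and not the fold. CTSZ held 225 and 162 FPKM in WT and 233 and 255 in BtzR. The WT replicates of CTSZ were the more spread. Its change was not past the adjusted p (0.268, limma). CTSC held 185 and 197 FPKM in WT and 159 and 152 in BtzR a change of -0.29 ± 0.08 (limma adjusted p = 0.0201). The T or NK cell markers summed to 132 to 186 FPKM in ARH-77 BtzR and 52.7 to 78.8 in WT, most of it NKG7, and their part in these values was not tested.

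The effect of bortezomib resistance was compared between the 4 lines directly. The line-by-resistance interaction passed an adjusted p under 0.05 for 5 of the 8 cathepsins tested (moderated F test in limma), and for 71.1% of all genes. They were CTSH (adjusted p = 2.3e-10), CTSK (1.3e-07), CTSZ (8.4e-05), CTSB (0.0022) and CTSC (0.0064). CTSD (adjusted p = 0.0569), CTSA (0.337) and CTSL (0.728) did not pass. CTSH shows the contrast most plainly, being 11.9-fold higher in AMO1 BtzR, 10.6-fold lower in RPMI-8226 BtzR and at or below 0.42 FPKM in all 6 L363 libraries.

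Among the WT lines the 8 cathepsins tested besides CTSS all passed the moderated F test, as did 92.6% of all genes, and CTSL entered only through L363. CTSD set ARH-77 apart. The WT values were 19.0 and 16.6 FPKM in ARH-77, 79.6 and 71.0 in AMO1, 67.2 and 70.4 in L363 and 72.6 and 64.6 in RPMI-8226. The 3 myeloma lines overlapped and ARH-77 lay far below, with AMO1 WT exceeding ARH-77 WT by 2.02 ± 0.10 (limma adjusted p = 1.54e-10). CTSD was not called in any resistant myeloma group and stood at 55.1 to 81.6 FPKM over all of them. The L363 BtzR libraries, at 57.0 and 55.1 FPKM, both lay below both L363 WT libraries. That change of -0.29 ± 0.10 did not pass the adjusted p (0.081, limma). CTSH and CTSZ had the reverse pattern, ARH-77 WT being higher than AMO1 WT in both (log2 differences of AMO1 WT minus ARH-77 WT of -5.01 ± 0.13 and -5.37 ± 0.19, limma adjusted p = 1.34e-13 and 3.04e-12). Over the 10 group means CTSA and CTSZ had r = -0.879, CTSD and CTSZ r = -0.831 and CTSD and CTSH r = -0.804, all with ARH-77 at one end. The genes whose group means followed CTSH most closely were SCCPDH (r = 0.988), KCTD18 (r = 0.981), GDPGP1 (r = 0.981), ITGAX (r = 0.980) and GEM (r = 0.979). Their ranges were unlike. SCCPDH ran from a mean of 0 FPKM in L363 CfzR to 31.3 in ARH-77 BtzR, whereas GDPGP1 moved only from 1.195 in L363 CfzR to 1.98 in ARH-77 WT.

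CTSS and CTSK are adjacent on chromosome 1 in RefSeq gene order. The 5 listed genes on each side were ADAMTSL4, MCL1, ENSA, GOLPH3L and HORMAD1, and CTSK, ARNT, SETDB1, CERS2 and ANXA9. ADAMTSL4 and HORMAD1 were under the filter, which left 8 tested. In AMO1 BtzR, where 9.18% of all genes were called in either direction, 4 of the 8 were called lower and 7 passed the adjusted p in that direction, with a median change of -0.98 against -0.0017 for all genes. Besides CTSK, these 4 were CERS2 (191 against 412 FPKM in WT), a ceramide synthase, GOLPH3L (29.4 against 62.0), a Golgi protein, and ARNT (50.5 against 105), a partner of hypoxia-inducible factors. Their log2-fold changes were -1.10, -1.05 and -1.03 (limma adjusted p = 6.91e-08, 1.07e-06 and 3.92e-06), so near the fold used that all 3 calls were lost after quantile normalization (-0.99, -0.99 and -0.97). The GOLPH3L call was also lost without AMO1 BtzR replicate 2 (-0.97) or AMO1 WT replicate 2 (-0.96), and the ARNT call without AMO1 WT replicate 2 (-0.93). MCL1, an anti-apoptotic BCL2 relative on which myeloma cells depend, went from 351 to 183 FPKM, a change of -0.94 (limma adjusted p = 1.22e-05). It reached -1.01 without AMO1 WT replicate 1. Over the 8 tested neighbours AMO1 WT was itself high. It exceeded L363 WT by a median of 1.44, RPMI-8226 WT by 2.09 and ARH-77 WT by 2.59. For all genes these medians were 0.0086, 0.055 and -0.033. In RPMI-8226 BtzR the neighbours did not follow CTSS. None was called by limma, where 13.8% of all genes were, with 7 of 8 at an unadjusted p under 0.05. Past the adjusted p, 6 were higher and 1 lower, and the median change was 0.46 against 0.052 for all genes. CERS2 was higher there, at 133 against 66.5 FPKM, by 0.99 (limma adjusted p = 9.47e-08), just under the fold, and passed it at 1.02 without RPMI-8226 BtzR replicate 1 and 1.07 without RPMI-8226 WT replicate 1. In L363 none of the 8 was called by limma, where 2.06% of all genes were in BtzR and 1.93% in CfzR, with 2 of 8 at an unadjusted p under 0.05 in BtzR and 1 of 8 in CfzR.

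**Figure D5:**
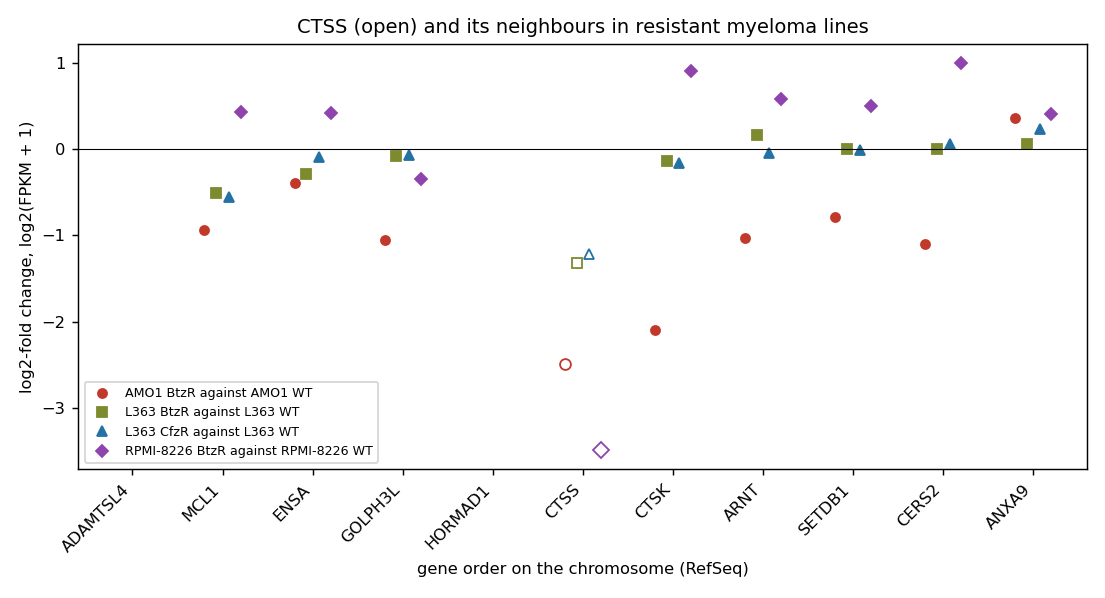
Log2-fold change of CTSS (open symbols, no test) and of its neighbours (filled symbols) along the gene order of chromosome 1, for AMO1 BtzR, L363 BtzR, L363 CfzR and RPMI-8226 BtzR against WT. ADAMTSL4 and HORMAD1 were not tested and carry no symbol. In AMO1 BtzR 7 of the 8 neighbours lie below 0, and in RPMI-8226 BtzR 7 of the 8 lie above 0 while CTSS is at -3.49.

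The partners of CTSS in class II antigen presentation did not move with it in every line. The list held 15 genes, for the invariant chain CD74, class II chains, the peptide loaders HLA-DM and HLA-DO, the regulator CIITA, transcription factors such as IRF1, IRF8 and SPI1, and the proteases and reductase LGMN and IFI30. In AMO1 BtzR, where CTSS was lower, 9 of the 15 were called higher and 0 lower, where 9.18% of all genes were called, with a median change of 2.32 against -0.0017 for all genes. HLA-DMB held 3.68 and 3.66 FPKM in AMO1 WT and 76.9 and 67.1 in BtzR, a rise of 3.96 ± 0.09 (limma adjusted p = 3.33e-13). CIITA held 9.17 and 6.48 FPKM in WT and 98.6 and 96.1 in BtzR, a rise of 3.49 ± 0.18 (limma adjusted p = 1.2e-09). HLA-DQA1 rose by 3.94 ± 0.16 (limma adjusted p = 9.86e-11), and reads of class II genes may have been split between similar genes. CD74 itself went from 851 and 938 FPKM to 6328 and 6320. These called genes were higher where CTSS was lower, whereas HLA-DQA2, a class II gene outside the list, was lower by a log2 difference of -3.61.

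In RPMI-8226 BtzR most called genes of the list were lower, as CTSS was. Of the 15 genes 8 were called lower and 1 higher, where 13.8% of all genes were called, with a median of -1.17 against 0.052. CD74 held 507 and 487 FPKM in WT and 1.55 and 3.92 in BtzR and fell by 7.13 ± 0.21 (limma adjusted p = 8.73e-13). HLA-DRA held 80.8 and 99.9 FPKM in WT and 0.35 and 0.85 in BtzR and fell by 5.85 ± 0.18 (limma adjusted p = 8.98e-13). SPI1, which encodes the myeloid and B cell factor PU.1, held 20.3 and 22.5 FPKM in WT and 0.24 and 0.08 in BtzR and fell by 4.27 ± 0.09 (limma adjusted p = 2.26e-14). SPI1 was at most 0.15 FPKM in all AMO1 and L363 libraries. A link between SPI1 and CTSS was not tested. In L363, where 2.06% of all genes were called in BtzR and 1.93% in CfzR, 0 of 15 were called higher and 2 lower in BtzR (median -0.50 against 0 for all genes) and 0 higher and 6 lower in CfzR (median -0.64 against -0.0040). HLA-DQA1 fell by 1.74 ± 0.16 in L363 BtzR (limma adjusted p = 2.4e-06) and by 1.78 ± 0.16 in L363 CfzR (limma adjusted p = 2.43e-06). HLA-DRA fell by 1.14 ± 0.18 in L363 BtzR (limma adjusted p = 4.59e-04), a call lost without L363 BtzR replicate 1 (-0.90) and in a fit of the L363 pair of groups only. In ARH-77 BtzR 0 of 15 were called by limma, with 3 of 15 at an unadjusted p under 0.05, where 1.6% of all genes were called. Against L363 WT the libraries labelled AMO1 CfzR had 1 of 15 called higher and 0 lower, where 1.66% of all genes were called.

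Among the resistant groups whose libraries matched their labels, the other human cathepsins and the cystatins were called only in RPMI-8226 BtzR. Of CTSE, CTSF, CTSO and CTSV, the 4 others listed, CTSE was at or below 0.14 FPKM throughout. CTSF held 6.65 and 4.82 FPKM in RPMI-8226 WT and was listed at 0 in both BtzR libraries, as it was in all ARH-77 libraries (log2(FPKM + 1) change -2.74 ± 0.11, limma adjusted p = 1.47e-11). CTSO held 0.22 and 0.35 FPKM in AMO1 WT and 5.16 and 3.90 in the libraries labelled AMO1 CfzR, beside 3.46 to 7.28 in L363. Against AMO1 WT, 17.1% of all genes were called in the libraries labelled AMO1 CfzR. CTSO and CTSF were called higher there and the cystatin gene CST3 lower, with log2-fold changes of 2.10, 2.64 and -1.32. CTSV held 0.25 and 0.34 FPKM in AMO1 WT and 1.44 and 1.53 in BtzR, a change of 0.94 ± 0.08 (limma adjusted p = 2.07e-07) just under the fold for a call. Between AMO1 WT and BtzR only BtzR reached the filter for CTSV, so nothing is read from the direction of this change. Cystatin C, the secreted inhibitor encoded by CST3, held 6.88 and 6.37 FPKM in RPMI-8226 WT and 57.1 and 47.0 in BtzR, a rise of 2.79 ± 0.14 (limma adjusted p = 2.87e-10). The intracellular inhibitors went the other way. CSTB held 307 and 258 FPKM in WT and 143 and 113 in BtzR and fell by 1.14 ± 0.15 (limma adjusted p = 1.64e-05), a call lost without RPMI-8226 BtzR replicate 2 (-0.97). CSTA held 1.43 and 1.72 FPKM in WT and 0 and 0.07 in BtzR and fell by 1.31 ± 0.14 (limma adjusted p = 1.92e-06). Its mean was 0 in AMO1 WT and L363 WT. Within RPMI-8226 only WT reached the filter, so nothing is read from the direction of the CSTA call. Of the 4 cystatins tested, 1 was thus called higher and 2 lower, CSTA among them, in RPMI-8226 BtzR, where 13.8% of all genes were called. With shares of 1.6% to 9.18% of all genes called, no cystatin was called by limma in AMO1 BtzR, L363 BtzR, L363 CfzR or ARH-77 BtzR, with 1, 1, 1 and 2 of 4 at an unadjusted p under 0.05.

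Calls among other lysosomal hydrolases and membrane proteins lay near the share of all genes called. That share was 9.18% in AMO1 BtzR, 2.06% in L363 BtzR, 13.8% in RPMI-8226 BtzR, 1.93% in L363 CfzR and 1.6% in ARH-77 BtzR. Of 26 hydrolases and membrane proteins of the lysosome, 1 was called higher and 1 lower in AMO1 BtzR, 0 and 1 in L363 BtzR, 2 and 0 in RPMI-8226 BtzR, and none by limma in L363 CfzR or ARH-77 BtzR, with 2 and 8 of 26 at an unadjusted p under 0.05. Without the fold criterion, 4 were higher and 9 lower in AMO1 BtzR, and 8 higher and 8 lower in RPMI-8226 BtzR. GAA, the acid alpha-glucosidase, fell by 1.43 ± 0.15 in L363 BtzR (limma adjusted p = 1.29e-05) and rose by 1.54 ± 0.15 in RPMI-8226 BtzR (limma adjusted p = 7.41e-07). In AMO1 BtzR the GM2 activator GM2A rose by 1.17 ± 0.10 (limma adjusted p = 4.18e-07). Of 9 genes of mannose 6-phosphate tagging and sorting, 1 was called lower in AMO1 BtzR. In RPMI-8226 BtzR 2 were called higher, and in L363 CfzR 1 was. None was called by limma in L363 BtzR or ARH-77 BtzR, with 3 of 9 at an unadjusted p under 0.05 in each. The sorting receptor SORT1 was called in 3 of these lines. It held 13.6 and 14.2 FPKM in AMO1 WT and 4.79 and 4.65 in BtzR and fell by 1.38 ± 0.11 (limma adjusted p = 1.54e-07). In RPMI-8226 it held 4.74 and 5.32 FPKM in WT and 12.5 and 13.0 in BtzR and rose by 1.19 ± 0.11 (limma adjusted p = 3.91e-07). In L363 CfzR it rose by 1.09 ± 0.11 (limma adjusted p = 1.0e-05), a call lost without L363 CfzR replicate 2 (0.91), without L363 WT replicate 1 (0.99) and in a fit of the L363 pair of groups only. IGF2R, the large mannose 6-phosphate receptor, rose by 1.10 ± 0.10 in RPMI-8226 BtzR (limma adjusted p = 2.27e-07), a call lost without RPMI-8226 WT replicate 1 (0.93). Of the 4 factors of the TFEB family only TFEC was called in a resistant group, falling by 1.59 ± 0.06 in RPMI-8226 BtzR (limma adjusted p = 1.81e-11) from 1.98 and 2.17 FPKM to 0.01 and 0.03. Within RPMI-8226 only WT reached the filter for TFEC, so nothing is read from the direction of its call. Of 8 granule proteases and partners that CTSC is known to activate or accompany, 3 passed the filter, all only through ARH-77, so that no call was possible in the myeloma lines. In ARH-77 BtzR none was called by limma, with 3 of 3 at an unadjusted p under 0.05.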

How the data were processed

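RNA from flash-frozen pellets was extracted, made into libraries and sequenced by BGI with a BGISEQ-500 instrument. The deposited table holds FPKM values that the authors computed for 18305 genes, with no read counts and no further normalization stated. The submitters' processing notes name HISAT2 2.0.4, Bowtie2 2.2.5 and RSEM 1.2.12, and the genome build is not given in the sources used here, so gene order and promoter sequences were taken from RefSeq GRCh38.p14 by symbol. Samples were grouped by line, drug and replicate number in their labels, and every value column was used (0 left out).

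The 13089 genes whose mean reached 1 FPKM in some group were fitted as log2(FPKM + 1) in limma 3.58.1 (R 4.3.3), using 10 group means over all 20 libraries, 10 residual degrees of freedom and a mean-variance trend, and p-values were adjusted over all genes tested. The p-values rest on the spread between the 2 biological replicates of a group, pooled over the 10 groups for each gene. That spread may be technical. An exact permutation test of 2 against 2 libraries cannot go below a two-sided p of 0.33 and was not used. Python 3.11.15, numpy 2.4.6, pandas 2.3.3 and matplotlib 3.10.9 were used for descriptions and plots.

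The members, gene lists and tests were chosen with earlier results of these data known. All 10 cathepsins and the other human cathepsins were named, with up to 3 called genes of largest change per list and comparison, the 5 genes most like CTSS and CTSH, and 5 neighbours of CTSS on each side. Lists covered cystatins, class II presentation, mannose 6-phosphate sorting, lysosomal proteins and their regulators, granule proteases and cell type markers. Other genes were named after their values were seen. Monocyte or macrophage markers summed to 4.14 to 23.3 FPKM. CTSG was not analysed here, and some list members are counted but not reported by name.

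The fit was tested on simulated data for AMO1 BtzR against AMO1 WT (12996 genes). It recovered 100 of 100 genes changed by 2 on the log2 scale and 98 of 100 changed by 1.5, and called 1 unchanged gene. All changed genes had an AMO1 WT mean of at least 5 FPKM. Recovery of genes below that level, such as CTSH and CTSZ in AMO1, and of changes near 1 was therefore not tested. Alternatives were pseudocounts of 0.1 and 0.01, no filter or 5 FPKM, rescaling to a common sum, quantile normalization, no trend, a fit of the compared libraries only, the replicate number as a block, omission of the libraries labelled AMO1 CfzR, and omission of each library in turn.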

Additional observations from a re-analysis of the deposited data

Results flagged for a closer look

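The change from WT to BtzR was not the same in the 4 lines for 5 cathepsins (moderated F test for interaction, limma, adjusted over all genes), a test that 71.1% of all genes passed, so the count is no more than the background. The adjusted p was 2.3e-10 for CTSH, 1.3e-07 for CTSK, 8.4e-05 for CTSZ, 0.0022 for CTSB and 0.0064 for CTSC. The log2-fold change of CTSH was 3.17 in AMO1 BtzR, -1.57 in RPMI-8226 BtzR and 0.72 in ARH-77 BtzR. CTSK was lower in AMO1 BtzR (-2.10) and higher in RPMI-8226 BtzR (0.91). CTSZ differed mainly through AMO1 BtzR (-1.45) and CTSB through RPMI-8226 BtzR (0.94), whereas the CTSC changes that passed the adjusted p were small (-0.27 in RPMI-8226 BtzR and -0.29 in ARH-77 BtzR). No cause was tested.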

How the results depend on the processing

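CTSS lay below WT in 5 of 5 resistant myeloma groups in FPKM, after rescaling to a common sum and after quantile normalization. The number of other cathepsins called in L363 BtzR went from 0 to 1 (CTSH) with a pseudocount of 0.1 or 0.01. In RPMI-8226 BtzR it went from 1 to 2 (CTSK added) with either pseudocount and after quantile normalization, and ranged from 1 to 3 when single libraries were left out. Against L363 WT the count for the libraries labelled AMO1 CfzR went from 1 to 0 with a filter of 5 FPKM, since CTSL was then not tested. With the replicate number as a block, 3 cathepsins were called in AMO1 BtzR, 1 in RPMI-8226 BtzR and 0 in either L363 group or ARH-77 BtzR, as without it, and the interaction passed for 6 in place of 5. The deviations of same-numbered libraries from their group means had r from -0.0055 (AMO1) to 0.245 (RPMI-8226), and nothing in the labels ties them. Over all named genes, 100 called values had 2966 alternatives, of which 2935 kept the call, 31 fell under a threshold and 0 changed direction. Many of these alternatives left out a library of a group not being compared, which cannot change the fold, so the kept share overstates stability. With 2 libraries per group, unknown depth and no counts, values near 0 FPKM carry no detection limit.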
